A study of Mus musculus with 3 samples.

Results

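The C-type lectin domain family was taken as every non-control probe whose gene name begins with Clec and a digit. That rule found 38 of the 55668 probes measured on all 3 arrays, for 31 of 36088 gene names; 25 of the 31 genes had 1 probe and 6 had more. The members were chosen by name and not by their values. They include a platelet receptor, receptors of endothelial cells, and many receptors of macrophages, dendritic cells and granulocytes.

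Expression was measured in cells sorted from mouse yolk sac for surface VE-cadherin, an adhesion protein of endothelium, together with CD45, a protein of white blood cells. The control group was 1 sample, labelled E10.5 (embryonic stage in days), with no transgene or Cre named for it. The Tie-2-Etv2 group was 2 samples from embryos in which an Etv2 transgene was turned on by Cre driven from the Tie-2 promoter, which is active in endothelial and blood-forming cells. All 3 samples were of mixed strain (B6/CBA and others), and no stage is given for the Tie-2-Etv2 samples. The comparison asks how expression in these sorted yolk sac cells differs when Etv2 is driven from the transgene. Etv2 directs the formation of the first vessels and blood and belongs to the ETS factors. The labels do not say whether samples were separate litters or pools, so a p-value here speaks of the spread between these particular arrays, and that spread may be technical.

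C-type lectins share a fold that in many members binds sugars with the help of calcium, while others bind proteins, lipids or crystals. In myeloid cells, activating members signal through a tyrosine motif in their own tail, or through adaptors such as the Fc receptor gamma chain (Fcer1g) and DAP12 (Tyrobp), to the kinase Syk and the adaptor Card9. Inhibitory members recruit the phosphatases Ptpn6 and Ptpn11. Most mouse Clec genes of blood cells lie in neighbouring groups on chromosome 6, named after the fungal receptors dectin-1 (Clec7a) and dectin-2 (Clec4n).

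Each sample had its own 1-colour array. A probe counts as detected where Agilent's software marked its spot as well above background. Detected were 18, 14 and 16 of the 38 Clec probes (47.4%, 36.8% and 42.1%) on the control, Tie-2-Etv2 replicate 1 and replicate 2 arrays, where 45.7%, 43.5% and 48.5% of all probes were. The replicate 1 array was dimmer: its 75th percentile was 1199 intensity units, that of the control 2073 and that of replicate 2 2092. Signals below are in intensity units as deposited, and all differences are log2 differences, or folds, after each array was set to its own 75th percentile of detected probes. Etv2 had signals of 72.6 in the control and 901 and 682 in the Tie-2-Etv2 arrays, Cdh5 (VE-cadherin) 123, 1568 and 751, and Ptprc (CD45) 978, 421 and 698. The labelled surface proteins thus had detected transcripts on all 3 arrays, but not at like levels. After scaling, Cdh5 was 22.1-fold and 6.05-fold above the control on replicates 1 and 2, and Ptprc 1.34-fold and 1.41-fold below it.

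Clec genes lay on both sides of the control. Of the 31 genes, 11 were detected on all 3 arrays, 7 on 1 or 2, and 13 on none. The comparison was made for the 17 genes detected in the control, or in each Tie-2-Etv2 sample, and the other 14 were not tested. Higher by 2-fold or more in each Tie-2-Etv2 sample were 4 of the 17 (Clec1b, Clec4d, Clec4e and Clec9a), or 23.5%, against 3.92% of all 19580 genes tested. Lower by 2-fold or more in each were 6 (Clec10a, Clec2h, Clec4a1, Clec4a3, Clec4b1 and Clec4n), or 35.3%, against 6.64%. The median difference of the 17 genes was -0.01 and that of all genes 0.07. By any amount, 7 of the 17 (41.2%) were above the control in each sample, against 42.5% of all genes, and 8 (47.1%) below it, against 30.9%. Detected in the control alone were 4 of the 19 Clec probes tested (21.1%), against 3.23% of all probes tested, and in both Tie-2-Etv2 samples alone 1 (5.26%), against 2.9%. Genes detected in 1 group only were tested because of the group in which they were high, so these shares describe the 17 and not the family.

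Some of the lower values were not measured on both sides. With values not above background raised to the lowest detected level of their array, 4 genes were 2-fold higher (3.19% of all genes) and 4 lower, Clec10a, Clec4a1, Clec4a3 and Clec4n (5.18%). The median size of the difference without its sign was then 1.43 for the Clec genes and 0.29 for all genes, down from 2.38 and 0.30. Among the 11 genes detected on all 3 arrays, 3 were higher, Clec1b, Clec4d and Clec4e (2.91% of 17228 genes), and 2 lower, Clec4a1 and Clec4n (3.44%). No Clec gene passed limma's test at an adjusted p of 0.05 (0 of 17, and 0% of all genes), with adjusted p from 0.2 to 0.996. The 10 genes named above had an unadjusted p under 0.05 in limma's test, 58.8% of the 17, against 10.8% of all genes. Of the 10, 4 were higher (4.41% of all genes) and 6 lower (6.36%). Clec10a, Clec2h, Clec4a3, Clec4b1 and Clec9a are among the 10 and were tested because of the group in which they were high. This share too describes the 17 and not the family. The lowest adjusted p, 0.2, was that of Clec10a and Clec4a3, whose Tie-2-Etv2 values were not above background. With 1 array against 2, the smallest p that an exact permutation test allows is 0.333. The test has 1 residual degree of freedom, from the Tie-2-Etv2 pair, and assumes that the lone control varies like it.

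**Figure D1:**
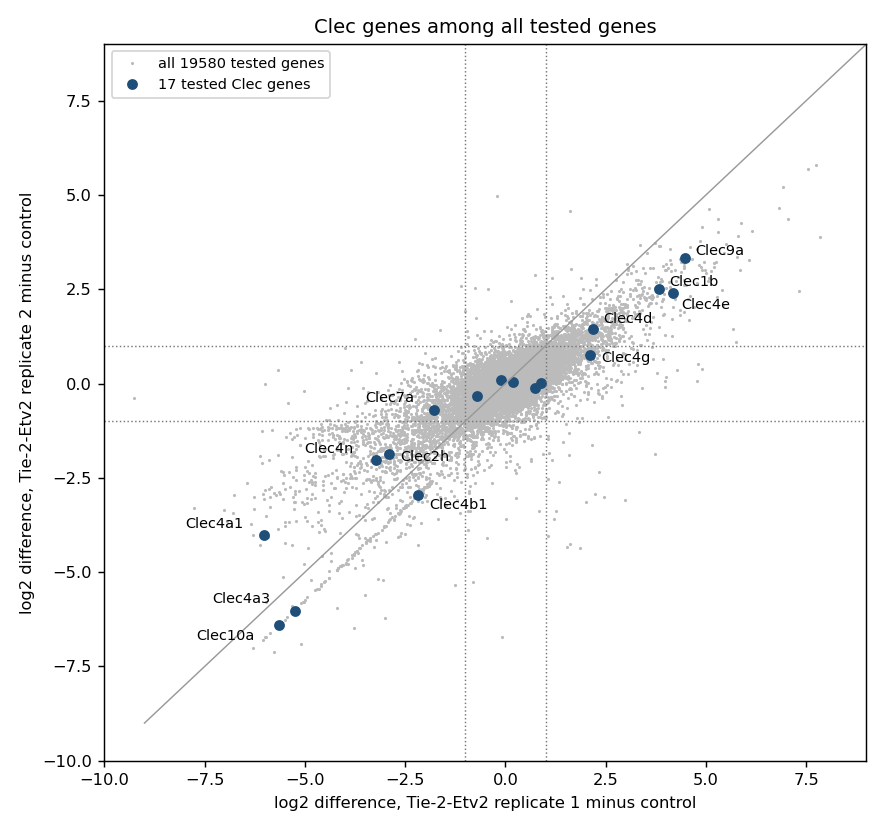
Log2 difference from control in Tie-2-Etv2 replicate 1 (horizontal axis) and replicate 2 (vertical axis) for all 19580 tested genes (grey) and the 17 tested Clec genes (blue); dotted lines mark 2-fold and the solid line equal differences. Clec9a, Clec1b, Clec4e and Clec4d lie in the upper right corner and 6 Clec genes in the lower left; Clec10a, Clec4a3 and Clec4b1 lie on a thin line of genes whose Tie-2-Etv2 values are both software surrogates.

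Replicate 1 lay further from the control than replicate 2 for 11 of the 11 Clec genes detected on all 3 arrays, whichever their direction, and for 67.1% of all such genes. The signals of both replicates are therefore given for each tested Clec gene, while some genes of the lists have only a mean.

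Among the endothelial members the best known gene was not detected. Clec14a encodes an endothelial surface protein of growing vessels that binds the matrix protein multimerin-2. Its 2 probes gave signals of 2.85 and 11.3 in the control, 2.16 and 2.27 on replicate 1, and 2.29 and 3.74 on replicate 2, and none of these was well above background. The probes start at bases 1613 and 3589 of the transcript, at chromosome 12, 59368573 to 59368632 and 59366597 to 59366656 (mm9). The first 30 bases of each are shown, since the reading rests on both.
Clec14a, base 1613: tcgttttggtcgtcttgaccattacagtgc
Clec14a, base 3589: tcatcttctccactgtatgttctctcagtt
A level under the background limit says only that the gene was not detectable with these probes. Clec1a, a receptor of endothelial and dendritic cells, was not detected either, with signals of 2.88, 2.18 and 2.30 from its only probe.

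Clec4g encodes LSECtin, a lectin of liver and lymph node sinus endothelium. It was detected on all 3 arrays at low signals of 34.6 in the control, 87.1 on replicate 1 and 58.7 on replicate 2. Both Tie-2-Etv2 arrays lay above the control, by 4.35-fold and 1.68-fold, with a mean log2 difference of 1.43 ± 0.68 (SE; 95% interval -0.47 to 3.33; limma's adjusted p = 0.608). The interval includes 0. On the same arrays 8 of 10 endothelial marker genes were 2-fold or more above the control in each Tie-2-Etv2 sample and 0 below by that much, with a median of 2.37; 8 of the 10 were detected in the control and 10 in each Tie-2-Etv2 array. Of all genes tested, 3.92% were 2-fold or more above the control in each sample and 6.64% below. Kdr and Emcn were not 2-fold higher in each sample, with differences of 0.86 and 0.14 for Kdr and 2.07 and -0.29 for Emcn. The summed signal of the endothelial markers, as a multiple of the 75th percentile, was 10.2 in the control and 50.5 and 24.9 in the Tie-2-Etv2 arrays. Bright genes weigh most in such sums, and Egfl7, with signals of 17233, 50180 and 44693, made up most of this one. Mmrn2, which encodes multimerin-2, had signals of 205, 1365 and 463 and lay 3.53 and 1.16 above the control on the log2 scale. Cd93, a relative of Clec14a on endothelial and progenitor cells, had signals of 1796, 9783 and 6529, with differences of 3.24 and 1.85. Clec14a was thus undetected on arrays where both its ligand gene and its relative were read.

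Clec1b encodes CLEC-2, the platelet and megakaryocyte receptor for podoplanin. Signalling through it keeps lymphatic vessels apart from blood vessels. It was the one member with several detected probes, and all 3 read higher than the control in each Tie-2-Etv2 sample. The probes start at bases 417, 784 and 1024 of the transcript and lie on chromosome 6 from 129350113 to 129355345 (mm9). Their first 30 bases show that they read different stretches.
Clec1b, base 417: ttagttctgctgatctcatccatggggctg
Clec1b, base 784: cattccgttggattggattatcacgccaga
Clec1b, base 1024: ggatgtcagataagtgcttgatcatgcaat

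The signals at base 417 were 205 in the control, 1425 on replicate 1 and 1391 on replicate 2. At base 784 they were 610, 5441 and 4153, and at base 1024 they were 715, 5832 and 4073. Every Tie-2-Etv2 signal lay above the control signal of its probe, also on the dimmer replicate 1 array before scaling. The mean log2 differences were 3.17, 3.35 and 3.16, or 8.99-fold, 10.2-fold and 8.92-fold. For the probe at base 1024, which stands for the gene, the scaled level was 1.62 ± 0.93 (SD, n = 2) against -1.54 in the control, with a standard error of 0.66 and limma's adjusted p at 0.278. The 3 probes share samples, so their likeness shows that the reading does not hang on 1 probe and adds no replicate.

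Other megakaryocyte and platelet genes did not share 1 direction. Of 10 markers, 3 were 2-fold or more above the control in each Tie-2-Etv2 sample (among them Itga2b at 2.29 and Gp9 at 1.53) and 3 lower (Gp6, Pf4 and Ppbp), with a median of -0.07. Among all genes tested, 3.92% were that much higher in each sample and 6.64% lower. Pf4 was detected on all 3 arrays, with a difference of -1.76. Gp6 was detected in the control alone and was at least 1.91-fold lower in the mean, while Ppbp was not detected on replicate 1 and was 3.95-fold lower on replicate 2. With dim values at the lowest detected level, 2 of the 10 were lower. The summed marker signal was 8.45 in the control and 7.83 and 7.66 in the Tie-2-Etv2 arrays. The part of megakaryocyte or platelet content in the Clec1b difference was not tested. Pdpn, the podoplanin gene, had signals of 318, 11.4 and 135 with log2 differences of -4.01 and -1.26. Ligand and receptor genes therefore stood on opposite sides of the control in both samples, and limma's adjusted p for Pdpn was 0.608.

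**Figure D2:**
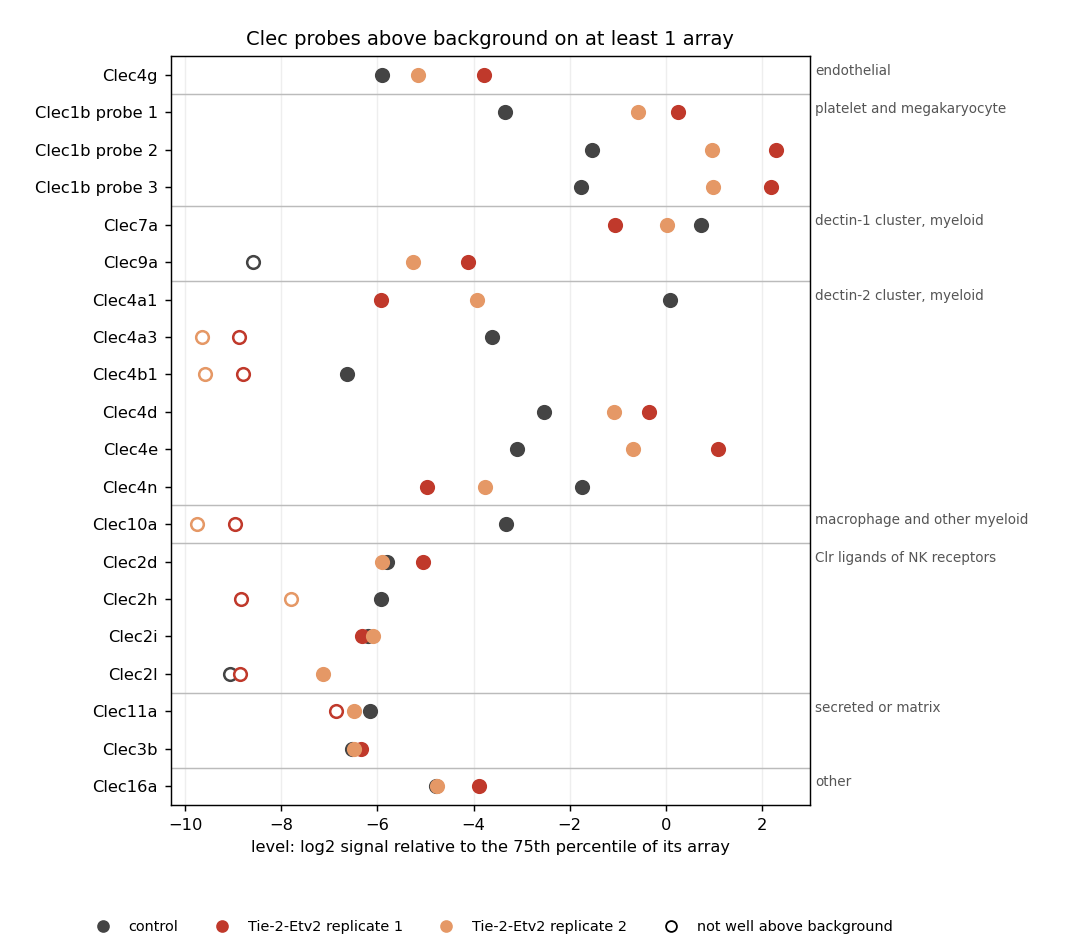
Scaled level of each Clec probe detected on at least 1 array (horizontal axis, log2 signal relative to the 75th percentile of its array) in the control (dark), Tie-2-Etv2 replicate 1 (red) and replicate 2 (orange), grouped by role; open circles are not well above background. Levels are compared within a row only: the 3 Clec1b probes, Clec4d, Clec4e and Clec9a have the control on the left, and Clec4a1, Clec4n, Clec4a3 and Clec10a have it on the right.

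The dectin-1 group, 6 neighbouring genes on chromosome 6 that include Clec1b and Clec1a, held both directions. Clec9a encodes DNGR-1, a receptor of cross-presenting dendritic cells and their precursors for the actin of dead cells. Its signal was 5.43 in the control, where it was not above background, and 69.4 and 54.6 in the Tie-2-Etv2 arrays, where it was. Averaged over both samples, Clec9a was at least 5.84-fold higher (8.69-fold and 3.92-fold), the control being set to the lowest level detected on its array. Its adjusted p was 0.235 in limma's test, which used the control value at background. Clec9a entered that test only through the Tie-2-Etv2 arrays. Only 1 probe reads it, at chromosome 6, 129372492 to 129372551 (mm9).
Clec9a, base 924: gcaatagtctgtaacgctttgcagatttca

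Dendritic cell markers did not move as 1 group. H2-Ab1, of MHC class II, was higher by 2.60, while Flt3 and Cd74 were lower, at -2.30 and -2.04. The other markers tested were Itgax at 0.48, Zbtb46 at 0.72 and Ccr7 at -0.32. Xcr1, a defining gene of cross-presenting dendritic cells, and the remaining marker were not tested. Markers detected on the control, replicate 1 and replicate 2 arrays numbered 5, 6 and 6, all among those tested. The untested markers, Xcr1 included, were thus detected on no array. The median over the 6 tested of 8 was 0.08, and their summed signal was 0.658 in the control and 1.96 and 0.826 in the Tie-2-Etv2 arrays. The part of dendritic cell content in the Clec9a difference was not tested.

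Clec7a encodes dectin-1, the beta-glucan receptor of macrophages, dendritic cells and neutrophils. Its signals were 3407 in the control, 573 on replicate 1 and 2138 on replicate 2. Both Tie-2-Etv2 arrays were below the control, by 3.44-fold and 1.61-fold, with a mean log2 difference of -1.23 ± 0.58 (SE; 95% interval -2.84 to 0.38; limma's adjusted p = 0.6). The interval includes 0. Clec12a and Clec12b, inhibitory receptors of myeloid cells, were not detected on any array; their highest signal was 6.29, for Clec12b on replicate 2.

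The dectin-2 group holds 9 neighbouring genes, of which 6 were tested, and it split by position. The 2 genes at its end, Clec4d and Clec4e, were higher, and the other 4 tested were lower. Clec4e encodes Mincle, a receptor for mycobacterial cord factor and for a nuclear protein of dead cells, and Clec4d encodes MCL, which pairs with it; both signal with Fcer1g. Clec4e had signals of 244 in the control, 2531 on replicate 1 and 1295 on replicate 2. It was 18-fold and 5.27-fold higher, 9.73-fold in the mean, with a log2 difference of 3.28 ± 0.84 (SE) and limma's adjusted p at 0.339. Clec4d had signals of 360, 939 and 990 and was 4.52-fold and 2.73-fold higher, 3.51-fold in the mean, with a log2 difference of 1.81 ± 0.45 (SE) and an adjusted p of 0.329 by limma. For both genes every Tie-2-Etv2 signal was above the control, before scaling as well as after.

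Lower in the Tie-2-Etv2 arrays were the neighbours on the other side. Clec4a1 belongs to the DCIR receptors of macrophages and dendritic cells. Its signals were 2195 in the control, 19.7 on replicate 1 and 137 on replicate 2. It was 64.5-fold and 16.1-fold lower, 32.3-fold in the mean, with a log2 difference of -5.01 ± 0.93 (SE) and limma's adjusted p at 0.256. Clec4n encodes dectin-2, the receptor for fungal mannans, and also signals with Fcer1g. Its signals were 621, 38.5 and 154, and it was 9.32-fold and 4.07-fold lower, 6.16-fold in the mean, with limma's adjusted p at 0.311. Both genes were detected on all 3 arrays, with the control above each Tie-2-Etv2 array.

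Clec4a3, another DCIR gene, had a signal of 169 in the control and 2.56 and 2.62 in the Tie-2-Etv2 arrays. Both low values were surrogates written by the extraction software for spots at background, so the spread between them is not that of the gene. Clec4a3 was at least 11.9-fold lower in the mean of both arrays (9.26-fold and 15.2-fold). Clec4b1, a DCAR gene, had a signal of 20.9 in the control from the probe at base 198 and surrogates of 2.68 and 2.72 in the Tie-2-Etv2 arrays, which gives a bound of at least 1.47-fold lower. Its other probe, at base 289, was not detected on any array. Normexp background correction subtracts the local background, models what remains over each whole array and adds an offset of 50 intensity units. The Clec4b1 control signal of 20.9 was smaller than that offset. With normexp the Clec4b1 difference was 0.01, and the part of the offset in that value was not tested. The remaining genes of the group, Clec4a2, Clec4a4 and Clec4b2, were not detected on any array.

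The probes of the split are shown because these genes are near relatives. The longest stretch shared between probes of different Clec genes, over 695 pairs, was 10 of 60 bases, between Clec4a3 and Clec11a. Match to other transcripts was not examined.
Clec4a1, base 1488: ctttggttttgctgatgtagaaccaacaaa
Clec4n, base 1171: gtcttgccctggtttctttctatgaactgc
Clec4d, base 837: aggatttgtaaattacctggaataacattc
Clec4e, base 1388: actggatttcacctgtacttgtatctactg
On mm9 these probes lie on chromosome 6 at 122884578 to 122884637 (Clec4a1), 123196969 to 123197028 (Clec4n), 123224788 to 123224847 (Clec4d) and 123232878 to 123232937 (Clec4e). Whether they fall in coding sequence or untranslated regions was not examined.

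**Figure D3:**
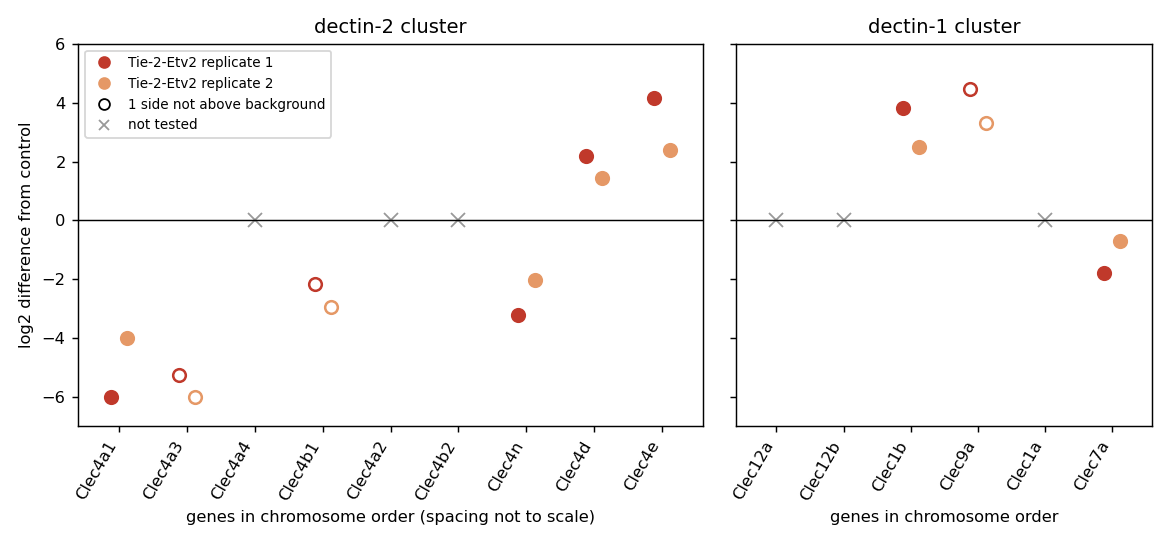
Log2 difference from control of each gene of the dectin-2 and dectin-1 groups, in the order of the genes on chromosome 6 (spacing not to scale), for Tie-2-Etv2 replicate 1 (red) and replicate 2 (orange); open circles have the control or that Tie-2-Etv2 array not above background, and crosses mark genes that were not tested. Clec4d (2.18 and 1.45) and Clec4e (4.17 and 2.40) stand above 0 beside Clec4n (-3.22 and -2.02).

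Clec10a encodes MGL1, a galactose-binding lectin of macrophages and dendritic cells. Its signal was 207 in the control and 2.4 and 2.45 in the Tie-2-Etv2 arrays, both surrogates. It was at least 14.6-fold lower in the mean of both (11.4-fold and 18.7-fold). Its neighbour and near copy Mgl2 did not follow: the Mgl2 probe gave 36852, 46634 and 73001 and lay 1.13 and 0.97 above the control on the log2 scale. The genes are similar in sequence, and what else the Mgl2 probe may read was not examined. Clec4f, a receptor of liver macrophages, and Clec5a, which signals with DAP12, were not detected on any array.

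The lower myeloid members stood beside macrophage genes that were lower throughout. Of 10 macrophage markers, 10 were 2-fold or more below the control in each Tie-2-Etv2 sample, with a median of -4.02 (-5.24 on replicate 1 and -2.59 on replicate 2), and all were detected on all 3 arrays. Their summed signal was 74.4 in the control and 5 and 17.2 in the Tie-2-Etv2 arrays. In sorted cells measured together, fewer cells of a type and less RNA per cell cannot be told apart. The higher members Clec4d and Clec4e stood beside granulocyte and mast cell markers, of which 6 of 10 were 2-fold or more above the control in each sample and 0 below by that much, with a median of 1.60. That list's summed signal was 20.8 in the control and 55.4 and 55.5 in the Tie-2-Etv2 arrays. Mpo, with signals of 37171, 44815 and 91829 and a difference of 1.18, made up most of that sum. The largest differences of the list were those of S100a8 and S100a9, at 4.84 and 4.12. Elane and Prtn3, of the same list, were at -0.14 and -0.15. For Prtn3 the difference was -1.18 on replicate 1 and 0.87 on replicate 2. By the same limit 3.92% of all genes tested were higher and 6.64% lower. The part of either list's cells in the Clec differences was not tested.

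The Clr genes encode ligands of natural killer cell receptors, and 3 of the 6 on the array were tested. Clec2d, the ligand of the inhibitory receptor Klrb1b, had signals of 37.5, 36 and 34.9 and a log2 difference of 0.31 (95% interval -1.06 to 1.68). Clec2i had signals of 28.4, 15.1 and 30.7 and a difference of -0.01 (95% interval -0.94 to 0.92). For both genes the Tie-2-Etv2 arrays lay on either side of the control, and both intervals include 0. Clec2h was detected in the control alone, at 34 against 2.63 and 9.48, at least 2.39-fold lower in the mean, and its difference was -0.17 with normexp background correction. Clec2l, a gene of the nervous system, was detected on replicate 2 alone (14.9) and was not tested, and Clec2e and Clec2g were not detected. Markers of natural killer and T cells had a median of 0.44 over the 4 tested of 8, with summed signals of 0.407 in the control and 0.599 and 0.501 in the Tie-2-Etv2 arrays.

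The secreted members lay near the control. Clec3b encodes tetranectin, a plasminogen-binding protein, and had signals of 22.6, 14.8 and 23.4 and a difference of 0.11 (95% interval -0.80 to 1.02). Clec11a encodes a secreted growth factor of bone and blood progenitors. It had signals of 28.9 in the control, a background-level 10.2 on replicate 1 and 23.4 on replicate 2, where it was 1.25-fold below the control. Clec3a and Clec18a were not detected. Clec16a, an intracellular regulator of endosomes and mitophagy, had signals of 75.8, 81.1 and 77.3 from 1 probe, with differences of 0.89 and 0.02, and its other probe was not detected.

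Most signalling partners of the receptors lay within 2-fold of the control. Of 23 genes for adaptors, kinases, phosphatases and ligands of these receptors, 22 were tested and 22 detected on each array. Above the control by 2-fold or more in each sample was 1 of the 22, the ligand gene Mmrn2, against 3.92% of all genes tested. Below by as much was 1, Pdpn, against 6.64%. The median was -0.30, against 0.07 for all genes. Fcer1g, the adaptor of Clec4e, Clec4d and Clec4n alike, had signals of 32211, 14020 and 22192 and a log2 difference of -0.48 (adjusted p = 0.764 in limma's test). Tyrobp was at -0.75, Syk at 0.12, Ptpn6 at -0.38 and Ptpn11 at 0.18. Card9 was at -1.12 on replicate 1 and 0.25 on replicate 2. Beyond 2-fold in the mean, though not in each sample, were Lat2 at -1.68, Nlrp3 at -1.35, Prkcd at -1.14 and Hcst at 1.16. The summed signal of the list was 67.1 in the control and 61.4 and 61.9 in the Tie-2-Etv2 arrays.

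Genes with a C-type lectin domain outside the Clec name showed both directions too. Of 51 such genes 26 were tested, with a median of -0.20. Of the 26, 3 were 2-fold or more above the control in each sample, against 3.92% of all genes tested. Below by as much were 6, against 6.64%. The higher were Klrb1c, Cd93 and Cd69, an early activation antigen of leukocytes, at 2.83, 2.54 and 2.20. The largest lower differences detected on both sides were those of Mrc1, the macrophage mannose receptor, at -4.30, and Mbl2, a soluble mannose-binding lectin, at -2.49. Colec12, a scavenger receptor of vessels, was not detected on replicate 1 and had a log2 difference of -3.51 on replicate 2. No gene of either list passed limma's adjusted test. Of the lists for other cells that the sort could hold, erythroid markers had a median of -2.13 (6 tested of 7), visceral endoderm markers -2.86 (6 of 6) and mesenchyme markers -3.84 (6 of 7). Some of these genes were bright in the control. The erythroid marker Hbb-y had signals of 51945 in the control, 5891 on replicate 1 and 14354 on replicate 2. For the endoderm marker Afp they were 43628, 1505 and 18488.

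**Figure D4:**
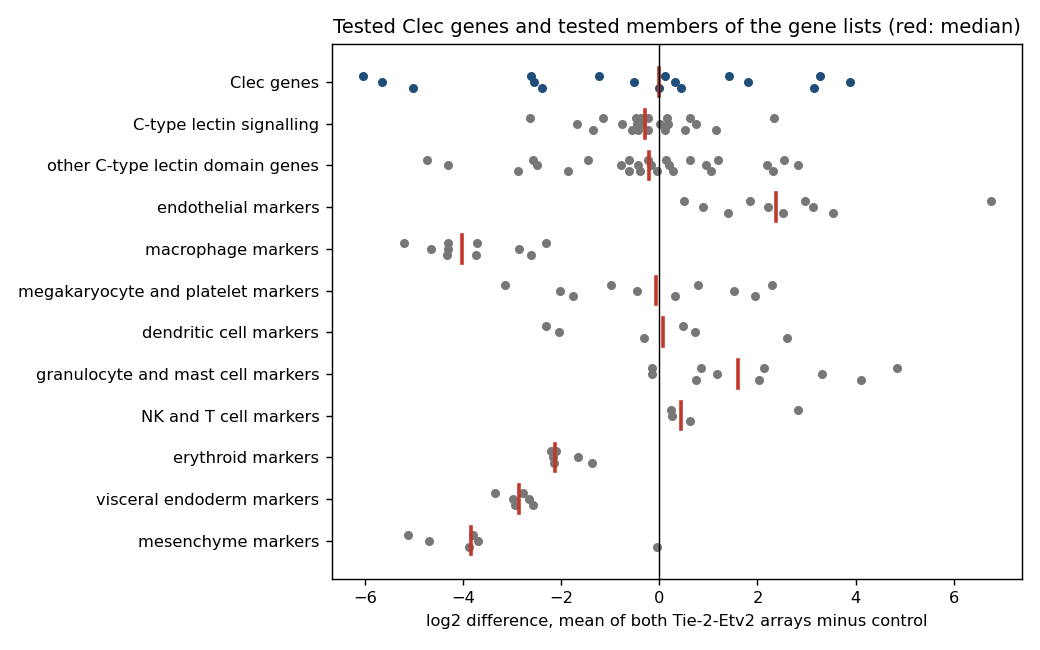
Mean log2 difference of both Tie-2-Etv2 arrays from the control (horizontal axis) for the 17 tested Clec genes (blue) and the tested members of 11 gene lists (grey), 1 dot a gene, with red lines at the medians. The Clec genes spread from -6.03 (Clec10a) to 3.89 (Clec9a) around a median of -0.01, while macrophage markers all lie below 0 and endothelial markers all lie above it.

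Some promoters are shown because Etv2 belongs to the ETS factors, which bind around the core GGAA: those of the 4 higher genes, of Clec4a1 among the 6 lower genes, and of the undetected Clec14a. RefSeq promoters (GRCm38.p6) were matched by symbol for 25 of the 31 Clec genes, and the 250 bases before the start are printed 5′ to 3′ on the gene's strand, with GGAA and its reverse complement TTCC in capitals.
Clec1b, chr6:129397047-129397296, plus strand: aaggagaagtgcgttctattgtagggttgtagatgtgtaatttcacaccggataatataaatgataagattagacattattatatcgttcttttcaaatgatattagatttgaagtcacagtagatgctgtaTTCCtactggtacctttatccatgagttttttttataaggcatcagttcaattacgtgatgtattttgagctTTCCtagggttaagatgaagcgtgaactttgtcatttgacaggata
Clec9a, chr6:129408612-129408861, plus strand: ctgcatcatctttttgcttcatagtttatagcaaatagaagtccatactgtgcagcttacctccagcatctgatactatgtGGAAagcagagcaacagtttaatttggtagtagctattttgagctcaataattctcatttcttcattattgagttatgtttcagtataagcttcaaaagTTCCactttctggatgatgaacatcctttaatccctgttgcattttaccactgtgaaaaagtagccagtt
Clec4d, chr6:123261857-123262106, plus strand: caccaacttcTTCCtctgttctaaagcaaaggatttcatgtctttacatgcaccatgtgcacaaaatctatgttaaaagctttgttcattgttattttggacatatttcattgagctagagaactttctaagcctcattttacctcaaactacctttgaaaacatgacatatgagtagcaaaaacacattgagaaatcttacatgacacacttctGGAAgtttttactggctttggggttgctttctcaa
Clec4e, chr6:123289872-123290121, minus strand: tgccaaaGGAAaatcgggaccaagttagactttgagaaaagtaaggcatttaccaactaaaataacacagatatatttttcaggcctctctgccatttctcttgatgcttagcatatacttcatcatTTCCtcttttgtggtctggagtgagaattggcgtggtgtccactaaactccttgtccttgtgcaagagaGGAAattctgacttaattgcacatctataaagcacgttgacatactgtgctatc
Clec4a1, chr6:122921598-122921847, plus strand: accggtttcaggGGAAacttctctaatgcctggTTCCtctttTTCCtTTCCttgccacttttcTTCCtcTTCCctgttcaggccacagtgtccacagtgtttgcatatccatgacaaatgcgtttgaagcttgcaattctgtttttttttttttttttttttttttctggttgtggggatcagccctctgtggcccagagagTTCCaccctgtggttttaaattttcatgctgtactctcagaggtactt
Clec14a, chr12:58269259-58269508, minus strand: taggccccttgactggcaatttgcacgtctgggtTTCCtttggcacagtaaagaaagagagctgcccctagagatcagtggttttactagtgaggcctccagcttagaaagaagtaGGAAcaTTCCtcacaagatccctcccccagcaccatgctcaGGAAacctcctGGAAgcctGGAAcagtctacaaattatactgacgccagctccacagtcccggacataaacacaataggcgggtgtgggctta

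The core GGAA, searched on both strands, occurred in 25 of the 25 Clec promoters and in 93.4% of 27025 promoters of the same length, with a mean of 2.91 matches. Clec1b, Clec9a and Clec4d, which were higher, had 2 matches each and Clec4e 3. Among the lower genes with a matched promoter, Clec4a1 had 7, Clec4b1 6, Clec4a3 3 and Clec2h 1, and the undetected Clec14a had 6. Longer motifs that contain the core, also searched on both strands, were less common: CCGGAAG, an extended ETS motif, was found in 0 Clec promoters and 7.05% of all. AACAGGAA, part of a joint forkhead and ETS motif, was found in 2 (Clec5a and Clec2d) and 2.16%, and GAGGAAGT, a motif of the myeloid factor PU.1, in 0 and 2.44%. AGATAA, 1 form of the motif of the erythroid and megakaryocyte factor Gata1, occurred in 0 Clec promoters and 10.3% of all. Other forms were not counted, such as TGATAA, which the printed Clec1b promoter holds. TGTGGT, a motif of Runx1 and its relatives, occurred in 5 (Clec5a, Clec4a1, Clec4a3, Clec4e and Clec12a) and 14.2%. A match of letters is a description and not a binding site.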

How the data were processed

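One Cy3-labelled array of Agilent design 028005 was read for each of the 3 samples (1 control, 2 Tie-2-Etv2). The deposited spot intensity values come from Agilent Feature Extraction, version 10.7 per the submitters' processing notes and 10.7.3.1 per the file headers. Its processed signal is background-subtracted, with surrogates in place of very dim spots. The authors also deposited log2 values of unstated scale and centring. Their differences between arrays equalled those of the log2 processed signal within 0.01 for 100% of 55668 probes, apart from a constant per array (0.756 and -0.0161), and each row was centred on its median (column medians 0, 0.138 and 0).

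No spot was saturated; control spots were dropped, as were the 168 to 174 outlier spots of an array. Log2 signals of 1 probe were averaged and set to each array's 75th percentile over the 22764 probes detected on all 3 arrays. The 26214 probes detected in the control, or in each Tie-2-Etv2 sample, were tested with limma 3.58.1 in R 4.3.3 (lmFit, eBayes, two-sided, Benjamini-Hochberg over probes, threshold 0.05, 3.92 total degrees of freedom). The fit was tested on simulated data. Where a gene had several tested probes, the brightest by the average of the group means stood for it. A gene detected in 1 group only has a bound in place of a fold: a dim sample entered at its own level or at the lowest level detected on that array, whichever was higher. The number of arrays limits the precision.

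All Clec genes are accounted for; those detected anywhere are named with values. From each gene list, the members that the counts turn on are named, and Mgl2, Fcer1g and other genes outside that rule were chosen after their values were seen; 1 marker gene is counted but its values are not reported here. Names were matched to RefSeq of GRCm38.p6, 37 Clec probes by accession and 1 by symbol; 1 probe that RefSeq now names as a Clec gene carries another name in the files and is not counted. Probe coordinates are on mm9, per the file headers. The members, gene lists and tests were chosen with earlier results of these data known.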

Additional observations from a re-analysis of the deposited data

How the results depend on the processing

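Limma called 0 genes in all and 0 Clec genes, except with normexp background correction (609 and 7) and with no filter on dim probes (440 and 6). The unadjusted p was under 0.05 for 2110 genes in the main processing, 10 of them Clec genes. With normexp Clec10a, Clec1b, Clec4a1, Clec4a3, Clec4d, Clec4e and Clec4n passed, and with no filter Clec10a, Clec1b, Clec4a1, Clec4a3, Clec4e and Clec9a. Limma's total degrees of freedom were 26200 with normexp and 21.1 with no filter, against 3.92 in the main processing. The cause of these added calls was not tested. The count of Clec genes 2-fold higher in both arrays was 3 to 5 under every alternative run. The count 2-fold lower was 4 to 7, except 2 where detection on all 3 arrays was asked, a filter that leaves out genes detected in the control alone. Leaving out 1 Tie-2-Etv2 array, which leaves a value with no test, gave 5 higher each time and 6 or 7 lower. With normexp the difference turned in sign for Clec11a (0.13), Clec2i (0.26) and Clec4b1 (0.01); the cause was not tested. Over the alternatives run, Clec1b lay at 2.50 to 3.82, Clec4e at 2.40 to 4.17, Clec4d at 1.45 to 2.18, Clec9a at 1.29 to 4.47, Clec4a1 at -6.01 to -3.68, Clec4n at -3.22 to -1.85, Clec4a3 at -6.02 to -1.54 and Clec10a at -6.41 to -1.82. Every bound belongs to the main processing. Raising dim values to the lowest detected level was chosen after the data were seen. No paired analysis was possible because the control group has 1 sample and no replicate number in the labels. Signals near background limit Clec2h, Clec2i, Clec3b, Clec4b1 and Clec11a.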
